A study of Mus musculus with 6 samples.

Results

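Accessible DNA in splenic Tregs was called as 100771 separate regions in *CREBfl/fl* mice, and most of them were short, with a median width of 239 bp. This account concerns the broadest of them, the 625 regions (0.620%) that ran over 1500 bp or more without a break. They were chosen by their width in the *CREBfl/fl* list, so their widths in that list are a description. They were then looked up in the list from *Foxp3creCREBfl/fl* mice, in which 94499 regions had been called, and among the start sites of transcripts in GENCODE vM21. The members just inside the limit were the regions of *Atad2* and *St8sia6*, both 1500 bp wide, and just outside it lay a region of *Sf1* and *Gm14966* with 1499 bp and a region of *Map3k5* with 1498 bp.

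Tregs are the CD4 T cells that hold immune responses in check and depend on the transcription factor Foxp3. Both groups of mice, 6 to 12 weeks old, carry loxP-flanked alleles of *Creb1*. In *Foxp3creCREBfl/fl* mice a Cre recombinase expressed with *Foxp3* deletes CREB in the Foxp3+ cells, while cells outside that lineage should keep it. Libraries (3 per group) were profiled by ATAC-seq, in which a transposase cuts open chromatin, and the data used here are 1 list of regions per group. Hence the spread between mice is unknown, no p-value can be given, and all intervals cover counting error only.

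The height of a region is given as its pileup, the number of fragments stacked over its summit, as recovered from the fold and p of each peak. Without any peak the pileup was 8.44 over the genome in the *CREBfl/fl* list and 5.09 in the *Foxp3creCREBfl/fl* list, a 1.66-fold difference in depth. All 5 Treg markers and all 5 T cell markers examined had an accessible start site, at 19.7 to 109 and 40.03 to 98.1 times the genome background of the *CREBfl/fl* list. So did 4 of 8 B cell markers, up to 18.4 times, 3 of 8 myeloid markers, up to 39.6 times, 6 of 8 markers of CD8 and NK cells, up to 35.2 times, and 3 of 8 erythroid markers, up to 27.7 times. Their part in the results was not tested, and no marker of any of these 6 lists had a broad region. The start site of *Creb1*, the deleted gene, lay in a region of 1224 bp in *CREBfl/fl* and 1222 bp in *Foxp3creCREBfl/fl*, with pileups of 1065 and 757. The deleted exons are not seen through this start site, so it does not check the deletion. A region that is open in fewer cells and one that is less open in each cell cannot be told apart in these data.

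Long stretches of open chromatin at the start of genes are a known feature of CpG islands, which are stretches of DNA rich in C and G that have kept their CpG dinucleotides. The promoters in them are used in most cell types and often fire in both directions. CREB binds the CRE, the palindrome TGACGTCA, and its shorter form TGACG, and its best known sites lie close to start sites. A cytosine within the CpG of the CRE is a known place where methylation interferes with binding.

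The base composition can be read from the sequences at the summits. The first 3 lines show summits within broad promoter regions of *Klf13* and *Klf16*, zinc finger factors that bind GC-rich DNA, and of *Atrnl1*, and the other 2 show the summits of intronic broad regions of *Crim1* and *Pisd* that hold no start site. They are given on the plus strand of GRCm38, cut where an annotated exon begins, and capitals mark the CpG dinucleotides.
Klf13, chr7:63939006-63939155, plus strand: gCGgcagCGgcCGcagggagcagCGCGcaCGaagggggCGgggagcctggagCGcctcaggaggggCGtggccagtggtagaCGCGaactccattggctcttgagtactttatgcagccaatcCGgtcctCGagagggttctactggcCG
Klf16, chr10:80577430-80577579, plus strand: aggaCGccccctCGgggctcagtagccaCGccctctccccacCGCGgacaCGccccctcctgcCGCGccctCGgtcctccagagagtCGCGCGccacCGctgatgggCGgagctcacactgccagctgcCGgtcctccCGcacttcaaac
Atrnl1, chr19:57610842-57610959, plus strand: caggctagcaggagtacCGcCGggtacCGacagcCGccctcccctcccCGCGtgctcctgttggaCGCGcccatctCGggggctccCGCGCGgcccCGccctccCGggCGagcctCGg
Crim1, chr17:78351683-78351832, plus strand: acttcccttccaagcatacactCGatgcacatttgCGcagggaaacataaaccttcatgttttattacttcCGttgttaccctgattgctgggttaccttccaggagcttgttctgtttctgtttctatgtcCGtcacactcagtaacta
Pisd, chr5:32768087-32768236, plus strand: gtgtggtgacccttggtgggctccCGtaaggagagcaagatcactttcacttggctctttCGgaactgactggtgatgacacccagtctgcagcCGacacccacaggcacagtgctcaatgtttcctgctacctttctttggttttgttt
The first 3 windows held 14, 16 and 16 CpGs, and the last 2 held 4 and 3. These windows are examples, and both classes varied. Summit windows of 150 bases held 3 CpGs in the promoter region of *Tagln2* and 5 in that of *Cxcr4*. They held 15 in a region nearest *Gm15707* and 13 in a region of *Mnt*, both without a GENCODE start site.

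The second set shows the CRE, in capitals, in broad regions of genes known as targets of signaling to the nucleus and of 2 regions that are discussed further on. *Dusp1* encodes a phosphatase that switches off MAP kinases, *Btg2* an antiproliferative protein, *Rel* an NF-kB subunit and *Maf* a transcription factor of T cells. *Usp9x* encodes a deubiquitinase, and *Csf2ra* the alpha chain of the GM-CSF receptor. *Csf2ra* was chosen after its values were seen, because its region held more CREs than any other broad region.
Dusp1, chr17:26508563-26508660, plus strand: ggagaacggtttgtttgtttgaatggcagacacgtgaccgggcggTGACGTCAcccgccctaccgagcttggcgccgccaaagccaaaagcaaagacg
Btg2, chr1:134079269-134079366, plus strand: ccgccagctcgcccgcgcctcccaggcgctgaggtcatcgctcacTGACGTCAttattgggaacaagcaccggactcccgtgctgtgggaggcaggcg
Rel, chr11:23771261-23771358, plus strand: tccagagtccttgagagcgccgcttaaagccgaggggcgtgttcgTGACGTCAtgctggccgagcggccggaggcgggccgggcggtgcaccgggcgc
Maf, chr8:115707826-115707923, plus strand: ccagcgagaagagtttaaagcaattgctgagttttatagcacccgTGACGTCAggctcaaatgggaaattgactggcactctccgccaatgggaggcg
Usp9x, chrX:13070891-13070981, plus strand: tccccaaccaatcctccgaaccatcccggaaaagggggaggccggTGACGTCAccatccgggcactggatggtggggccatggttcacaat
Csf2ra, chr19:61226696-61226793, plus strand: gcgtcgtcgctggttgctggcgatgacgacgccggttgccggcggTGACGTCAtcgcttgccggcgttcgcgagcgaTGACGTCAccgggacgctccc

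The 625 broad regions lay mainly at the start of genes. A start site was found inside 581 of them (93.0%, 95% Wilson interval 90.7 to 94.7), against 14.4% of all *CREBfl/fl* regions. For 572 it was that of a protein-coding gene, and the other 9 held start sites of non-coding genes alone. Together they held the start sites of 789 genes by identifier, 654 of them protein-coding, and 652 by symbol, since 2 symbols have 2 identifiers each. The share with a start site rose with every step in width, from 2.70% of regions under 250 bp through 56.2% from 750 to under 1000 bp to 92.5% from 1500 to under 2000 bp and 98.0% (89.3 to 99.6) of the 49 regions of 2000 bp or more. Start sites were counted within each region as called, and a wider region can hold more of them by its length alone. The part of length in these shares was not tested.

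**Figure D1:**
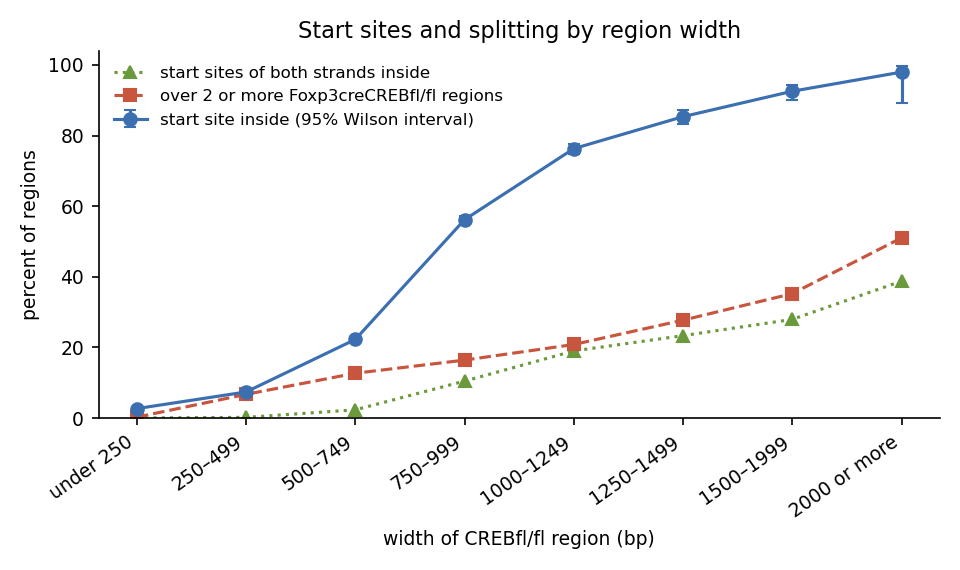
Percent of *CREBfl/fl* regions in 8 classes of width (x axis, bp) that hold a start site (circles, bars are 95% Wilson intervals), hold start sites of both strands (triangles) or lie over 2 or more *Foxp3creCREBfl/fl* regions (squares). All 3 shares rise with width, the first from 2.70% to 98.0%.

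Start sites on both strands were inside 180 broad regions. Of the broad regions with a start site these were 31.0% (27.4 to 34.9), against 15.3% (14.7 to 15.9) of the other regions with a start site. Here too length alone can raise the share, and windows of equal length were not compared. With protein-coding transcripts alone, 65 broad regions held start sites on both strands, and 76 held start sites of at least 2 coding genes. Such pairs are *Cbx3*, which encodes a heterochromatin protein, with *Hnrnpa2b1*, which encodes an RNA-binding protein, in 2351 bp, and *Sgsm2* with *Tsr1*, a ribosome maturation factor, in 2285 bp.

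In the 394 broad regions with a coding start site and start sites on 1 strand alone, the regions reached further into the gene than away from it. The median reach was 702 bp upstream and 974.5 bp downstream of the start site nearest the summit, and 274 of the 394 (69.5%) reached further downstream. The summit lay at a median of -40.5 bp from this start site (positive downstream), and 292 summits (74.1%) lay within 250 bp. Because the start site nearest the summit was taken, and broad regions held a median of 3 start sites, this closeness is in part built in.

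The broad regions were rich in CpG, with a median GC content of 63.8% against 49.3% in all *CREBfl/fl* regions, and a median ratio of observed to expected CpGs of 0.81 against 0.26. Because longer regions hold more sequence, windows of 1500 bp at the midpoint were compared as well. By the usual limits for a CpG island, over 50% GC and a CpG ratio over 0.6, 87.4% of the windows at broad regions qualified, against 51.8% at the other regions with a start site and 11.5% at all regions. At narrower regions such a window takes in sequence beyond the region. By the regions' own sequence these shares were 86.4%, 67.0% and 14.4%. Repeats covered a median of 6.76% of the bases of a broad region and 7.54% of all regions.

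**Figure D2:**
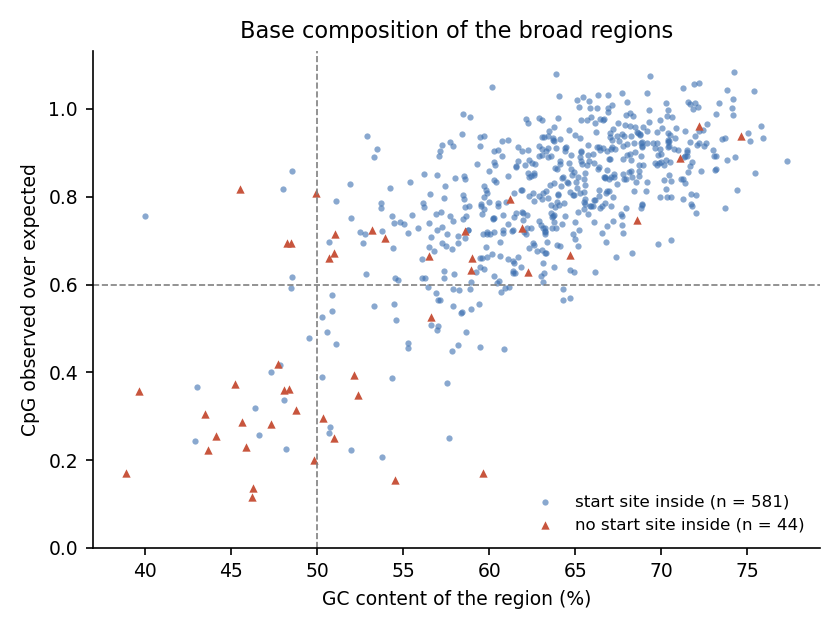
GC content (x axis, %) and ratio of observed to expected CpGs (y axis) of each of the 625 broad regions, with a start site inside (circles, n = 581) or without (triangles, n = 44). Dashed lines are at 50% and 0.6; most circles lie above and to the right of both, and the triangles fall there and below and to the left of both.

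Words were then searched on both strands of the windows of 1500 bp. The full CRE, TGACGTCA, was present in 7.84% of windows at broad regions (6.0 to 10.2), 4.72% at the other regions with a start site and 2.0% at all regions. The CRE half-site TGACG, which is also part of the full CRE, was present in 80.3%, 65.0% and 46.4%. The GC box GGGCGG, bound by SP and KLF proteins, was in 93.8%, 81.8% and 36.4%, the ETS word CGGAAG in 65.4%, 56.8% and 29.8%, and the NRF1 palindrome in 3.04%, 2.45% and 0.61%. Words without a CpG went the other way: the AP-1 word TGANTCA was in 18.6%, 25.6% and 38.0%, the RUNX word TGTGGTTT in 5.6%, 7.85% and 14.1%, and CCAAT in 70.7%, 81.0% and 84.0%. In windows of 300 bp at the summit, some of these orders changed. The ETS word was in 27.7% of windows at broad regions and 30.5% at the other regions with a start site, the NRF1 palindrome in 1.6% and 1.71%, and CCAAT in 34.1% and 35.2%, against 29.98% for CCAAT at all regions. The CRE was in 4.96% and 3.20%, the half-site in 39.2% and 30.6% and the GC box in 72.6% and 60.4%. A match describes the letters and is not a bound site.

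Within whole regions, 51 broad regions held a full CRE. The region of *Csf2ra* at chr19:61226006-61227819, 1814 bp wide, held 7 of them, 2 of which are in capitals in its line above. Its widest *Foxp3creCREBfl/fl* counterpart was 1568 bp, and the pileups were 818 and 512. *Crlf2*, which encodes a receptor chain for thymic stromal lymphopoietin, had an intronic broad region of 2031 bp with 1 CRE at chr5:109556783-109558813. The human orthologues of both genes lie in the pseudoautosomal region of the sex chromosomes, while the mouse genes are autosomal. *Ppp2r3d*, which encodes a regulatory subunit of protein phosphatase PP2A, had 2 CREs in its 2457 bp at chr9:124422849-124425305.

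The widest region of the list, 3694 bp at chr17:39843065-39846758, lay over the non-coding gene *Gm26917*. It was 3697 bp wide in *Foxp3creCREBfl/fl*. No list of regions known to collect misplaced reads was used to filter the peaks, and whether this region is open chromatin was not tested. By the authors' fold this region stood only 3.11 and 3.23 times over its background, and its *CREBfl/fl* pileup could not be recovered. Next came *Nr3c1*, which encodes the glucocorticoid receptor, with 2795 bp, and *Klf13* with 2792 bp at chr7:63937208-63939999, which had the highest recovered pileup of the 15 widest, 1624. *Usp9x* followed with 2664 bp at chrX:13070332-13072995 and a pileup of 443. Regulators of chromatin and RNA were among the others: *Sinhcaf*, a part of the SIN3 histone deacetylase complex, with 2533 bp, *Klf16* with 2431 bp, the RNA-binding protein gene *Larp1* with 2411 bp, the RNA demethylase gene *Alkbh5* with 2366 bp, the zinc finger gene *Rreb1* with 2331 bp and the lysine methyltransferase gene *Setd7* with 2327 bp. *Ywhaz*, which encodes the 14-3-3 protein zeta, had 2369 bp at chr15:36792320-36794688, and *Tagln2*, which encodes an actin-binding protein, had 2295 bp. Of the 15 regions, 14 held the start site of a coding gene.

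Width and height were related over all 100712 *CREBfl/fl* regions with a recovered pileup (Spearman's rho 0.76, a description across regions of the same list). Within the broad ones rho was 0.03 over 622. These were chosen by their width, with quartiles of 1562 and 1760 bp, so that value cannot show whether the relation is lost among them. The pileup of the broad regions ranged from 59 to 1925 with a median of 696, against a median of 90 for all regions. Over the genome background the median was 82.4-fold in *CREBfl/fl* and 91.6-fold in *Foxp3creCREBfl/fl*. The background recovered for each of them was high too, with a median of 52.7 fragments, so the authors' fold of a broad region is far below its height over the genome. Over what stretch that background was taken is not given.

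The lists of Treg and T cell genes had no member among the broad regions. Of 12386 protein-coding genes, counted by symbol, with a start site in a *CREBfl/fl* region, 652 (5.26%, 4.88 to 5.67) had it in a broad one. Of the 21 Treg identity genes, all with an accessible start site, 0 had a broad region, which allows a share of up to 14.3% (3 counts). The same was true of 0 of 30 genes of T cell identity and receptor signaling, which allows up to 10%. The median width was 787 bp for the Treg genes and 723 bp for the T cell genes, against 926 bp for all coding genes. The widest regions of these lists were those of *Nrp1*, a surface receptor of thymic Tregs, with 1245 bp and of *Fyn*, a kinase of the T cell receptor, with 1264 bp. *Foxp3* itself had a region of 220 bp at its start site in *CREBfl/fl* and of 332 bp in *Foxp3creCREBfl/fl*.

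The lists of transcription factors and early response genes gave larger shares. Of 40 lymphoid transcription factors with an accessible start site, 9 (22.5%, 12.3 to 37.5) had a broad region. *Klf13* was the widest, followed by *Runx1* with 1869 bp, which partners Foxp3, *Nfatc2* with 1853 bp, which carries calcium signals, *Bach2* with 1813 bp, which restrains effector differentiation, *Cbfb* with 1760 bp, the partner of RUNX proteins, and *Maf* with 1688 bp. Of 34 immediate early and AP-1 genes, 7 (20.6%, 10.3 to 36.8) were broad: *Dusp1* with 2158 bp, *Ier5* with 2073 bp, *Btg2* with 1874 bp, *Jund* with 1799 bp, *Gadd45b* with 1593 bp and *Jun* with 1565 bp, and, narrowest, *Fos*.

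Of the 20 genes of the CREB family and its coactivators, 4 (20%, 8.1 to 41.6) were broad. They were *Crtc3*, a coactivator of CREB, with 1707 bp, *Crem*, a close relative of CREB, with 1703 bp, the acetyltransferase gene *Ep300* with 1628 bp, and *Prkar1a*, the regulatory subunit of the kinase that activates CREB, with 1528 bp. Of 21 classical CREB targets with an accessible start site, 3 (14.3%, 5.0 to 34.6) were broad, namely *Dusp1*, *Crem* and *Fos*. These lists overlap, since *Crem*, *Dusp1* and *Fos* are each in 2 of them.

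Housekeeping genes gave 5 of 20 (25%, 11.2 to 46.9): *Ywhaz*, the chaperone gene *Hsp90ab1* with 2132 bp, the lactate dehydrogenase gene *Ldha* with 1976 bp, the elongation factor gene *Eef1a1* with 1611 bp and *B2m*, the light chain of MHC class I, with 1569 bp. Chromatin regulators gave 9 of 63 (14.3%, 7.7 to 24.97), with the DNA methyltransferase gene *Dnmt3a* the widest at 2233 bp, then the acetyltransferase gene *Kat6a* with 1923 bp, *Ash1l* with 1691 bp, *Kdm2a* with 1675 bp, the Polycomb gene *Eed* with 1584 bp and *Setd5* with 1572 bp. Replication-dependent histone genes, which lie close together, gave 8 of 55 (14.5%, 7.6 to 26.2), and pairs such as *Hist1h1e* with *Hist1h2be* shared a region. Ribosomal protein genes gave 2 of 79 (2.53%, 0.7 to 8.8), *Rpl7* and *Rpl38*, and genes of the respiratory chain 1 of 87 (1.15%, 0.2 to 6.2), *Atp5j*.

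Cytokine signaling gave 4 of 30 (13.3%, 5.3 to 29.7), with *Stat6* at 1813 bp, *Tgfbr2* at 1646 bp, *Smad4* at 1639 bp and *Smad2* at 1555 bp, and the NF-kB pathway 2 of 22 (9.1%, 2.5 to 27.8), *Nfkb2* with 1651 bp and *Rel* with 1543 bp. Trafficking genes gave 2 of 25 (8.0%, 2.2 to 24.97), the chemokine receptor gene *Cxcr4* with 2136 bp and the integrin gene *Itgb1* with 1556 bp. Genes of ST2+ Tregs and Th2 cells gave 1 of 12 (8.3%, 1.5 to 35.4), *Rora* with 1605 bp. In this list *Il1rl1* and *Il10* had no region at a start site in *CREBfl/fl*. Of its 18 genes, 12 had a start site in a *CREBfl/fl* region and 16 in a *Foxp3creCREBfl/fl* region, while over all protein-coding genes these numbers were 12386 and 12281. All of these are net counts, so they do not give the share of genes that gained or lost a region.

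The X chromosome held 4 broad regions among its 2355 *CREBfl/fl* regions (0.170%), at *Usp9x*, the RNA helicase gene *Ddx3x*, *Magee1* and *G6pdx* with *Ikbkg*, while the shares of the autosomes ran from 0.432% to 0.787%. The median pileup of regions with a start site was 335 on X and 530 on the autosomes.

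Turning to the mice without CREB in Tregs, all 625 broad regions had a counterpart in the *Foxp3creCREBfl/fl* list, while 16.4% of all *CREBfl/fl* regions had none. This was not particular to the broad regions. The share with a counterpart was 100% in each class of width from 1000 bp on, 98.0% from 250 to under 500 bp and 69.1% under 250 bp. In 364 of the 625 (58.2%, 54.3 to 62.0) the counterpart was itself 1500 bp or wider. The converse choice gave a higher share: of the 419 *Foxp3creCREBfl/fl* regions of 1500 bp or more, 364 (86.9%, 83.3 to 89.8) were that wide in *CREBfl/fl*. Both choices share the same 2 lists, and regions chosen as wide in a list tend to be narrower in the other.

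Continuity also differed between the lists. A total of 228 broad regions (36.5%, 32.8 to 40.3) lay over 2 or more separate *Foxp3creCREBfl/fl* regions, against 6.88% of all shared *CREBfl/fl* regions, and this share also rose with width, from 0.28% under 250 bp to 51.0% from 2000 bp on. The other 397 lay over a single region. In the converse direction, 52 of the 419 (12.4%) broad *Foxp3creCREBfl/fl* regions lay over 2 or more *CREBfl/fl* regions. The breaks were short, with a median of 64 bp for the largest break of a region (37 to 329 bp), and 145 of the 228 were under 75 bp. No 2 regions of a list lay closer than 37 bp. The *Foxp3creCREBfl/fl* pieces together covered a length that was a median of 96.7% of the *CREBfl/fl* width. Of 397 unbroken regions 325 kept 1500 bp or more, and of the 228 broken ones 39 did. The part of the lower depth of the *Foxp3creCREBfl/fl* list in these breaks was not tested.

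**Figure D3:**
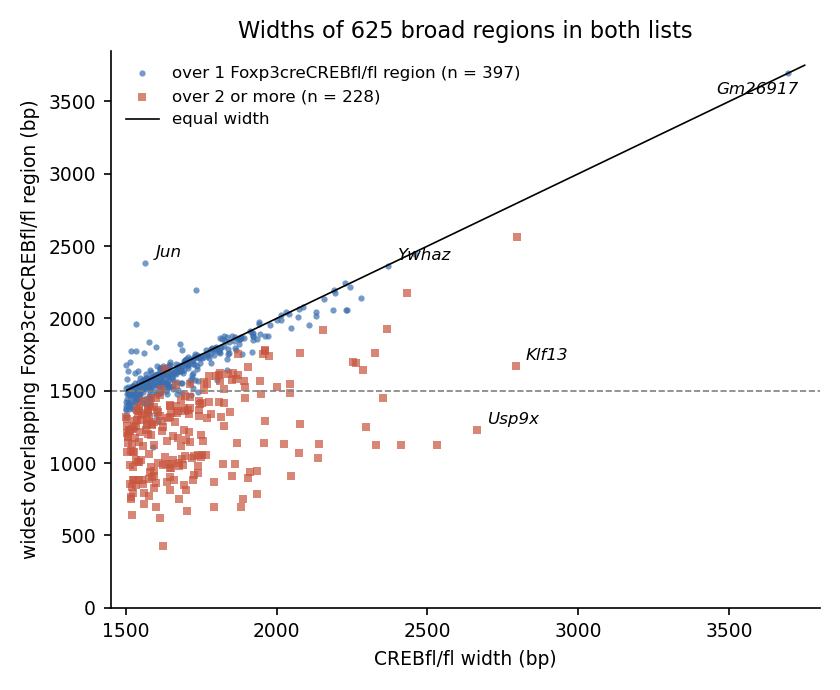
Width of each of the 625 broad regions in *CREBfl/fl* (x axis, bp) against its widest overlapping *Foxp3creCREBfl/fl* region (y axis, bp), for regions over 1 (circles, n = 397) or more (squares, n = 228) such regions. The circles follow the line of equal width, while most squares lie below the dashed line at 1500 bp.

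Most breaks lay away from the start site nearest the summit. In regions with coding start sites on 1 strand, 181 breaks had a median distance of 630 bp from it, 17 of them (9.4%) lay within 250 bp of it, and 114 (63.0%) lay downstream. Since 74.1% of summits lay within 250 bp of this start site, the distance is in part a distance from the summit, where a break is least likely. The broad regions themselves reached further downstream, by a median of 974.5 bp against 702 bp upstream. Over all 269 breaks of the 228 broken regions, the median GC content was 54.1%, against 62.3% for the regions they interrupted. In *Klf13* the pieces ended 589 bp and resumed 633 bp downstream of the start site, a break of 43 bp, and the wider had 1671 bp, while the pileup was 1624 in *CREBfl/fl* and 1123 in *Foxp3creCREBfl/fl*, or 192 and 221 times the genome background. *Usp9x* had a break on each side of the start site and its widest piece had 1230 bp. *Larp1*, *Sinhcaf* and *Rreb1* were also broken, with widest pieces of 1125, 1126 and 1127 bp. *Cxcr4*, whose product guides T cells along CXCL12, lay over 3 pieces with the widest at 1036 bp, and *Fos* over 2 with the wider at 853 bp.

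**Figure D4:**
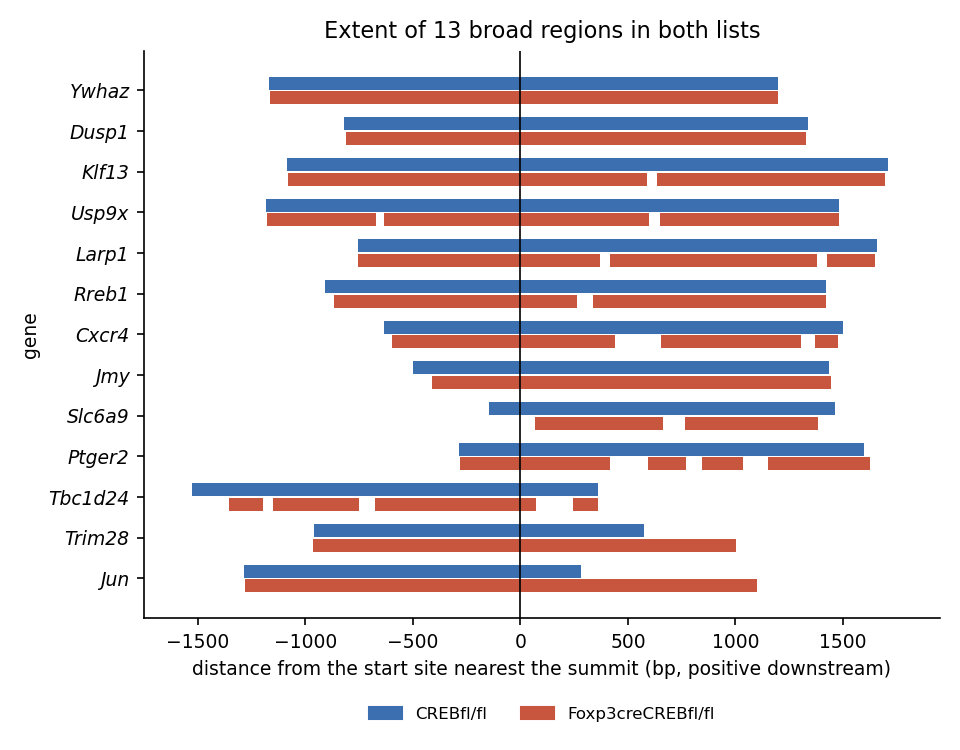
Extent of 13 broad regions in *CREBfl/fl* (upper bar) and *Foxp3creCREBfl/fl* (lower bar) around the start site nearest the summit (x axis, bp, positive downstream). *Ywhaz* and *Dusp1* keep their extent, *Klf13* to *Cxcr4* and *Ptger2* are broken away from the start site, and *Trim28* and *Jun* reach further downstream. *Slc6a9* is broken and its first piece begins 67 bp downstream of the start site, which is no longer covered. *Tbc1d24* loses its upstream end and has several breaks, the nearest between 70 and 243 bp downstream of the start site.

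Width itself, taken as the widest piece, was lower in *Foxp3creCREBfl/fl* for 527 broad regions (84.3%), against 68.1% of all shared regions. The median log2 ratio of the widths was -0.07, beside the -0.09 of all shared regions, relative to which it was 0.02. It was -0.02 for unbroken broad regions and -0.43 for broken ones. A decrease by 1.5-fold or more was seen in 91 (14.6%), against 13.7% of shared regions, and an increase of that size in 1 (0.16%), against 5.73%. The regions were chosen by the *CREBfl/fl* width in these ratios. The excess of lower widths and the lack of gains are therefore in part built in. All shared regions are mostly narrower, and their log2 width ratios varied more, with an SD of 0.55 against 0.33. For regions chosen by 1500 bp or more in *Foxp3creCREBfl/fl*, the median log2 ratio of widths was -0.01. The largest decreases on the log2 scale were those of an intronic region of *Pisd* (-1.92), which lay over 5 pieces, the widest of 430 bp, of *Ptger2* (-1.43), a prostaglandin E2 receptor that raises cAMP, and of the glycine transporter gene *Slc6a9* (-1.38), followed by *Hectd2* (-1.36), *Zfp839* (-1.34) and *Tbc1d24* (-1.33). In *Ptger2* the region went from 1883 bp to 4 pieces, while the pileups were 550 and 373, at a relative log2 ratio of 0.02.

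The 1 region that widened by 1.5-fold was that of *Jun*, an AP-1 subunit and early response gene, from 1565 to 2383 bp. Its *Foxp3creCREBfl/fl* region began at the same end and reached 1101 bp downstream of the start site instead of 280 bp. Another *CREBfl/fl* region of 733 bp lay there, 88 bp away, so in this case the break was in the *CREBfl/fl* list. The same was found for 4 of the next 5 gains, *St14* (1734 to 2196 bp), *Trim28* (1535 to 1964 bp), *Sfmbt1* (1578 to 1838 bp) and *B3gnt2* (1516 to 1772 bp), each with 1 more *CREBfl/fl* region 39 to 99 bp away. *Trex1* widened from 1535 to 1773 bp without one. The pileups at *Jun* were 1312 and 904, a relative log2 ratio of 0.04 (-0.08 to 0.17).

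The heights of the broad regions stayed close to the median of all shared regions. For 621 of them the ratio of both pileups could be formed, each over its genome background and relative to the median of all 82004 shared regions, which was itself 0.15 on the log2 scale. The median relative log2 ratio was 0.01 and the SD 0.15, against an SD of 0.30 for all shared regions and 0.20 for the 23229 with a *CREBfl/fl* pileup as high as in all but the lowest 5% of broad regions. The median SD from counting was 0.09. Regions were called lower or higher from a difference of 2-fold and 5 counting SDs. By this rule 0 of 621 broad regions were lower, against 0.117% of shared regions, and 0 were higher, against 0.0829%, so a count of 0 is near the background and allows a share of up to 0.483%. The interval lay below 0 for 50 (8.05%, against 7.88%) and above 0 for 38 (6.12%, against 5.47%). Most shared regions are low and have wide intervals. Among the 23229 regions of high pileup, 14.1% had the interval below 0 and 5.77% above, and 44 (0.189%) were lower and 1 was higher by the rule. In total 615 lay within 0.5 of the median.

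**Figure D5:**
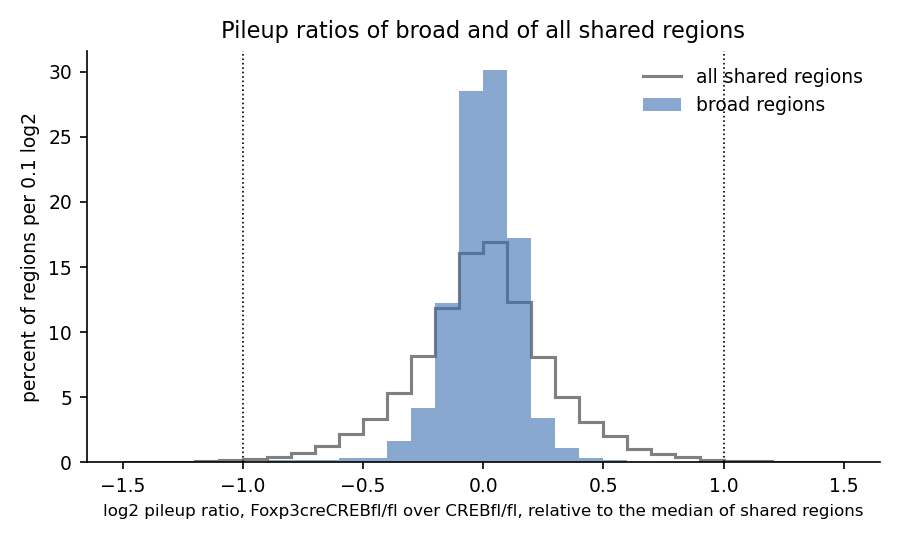
Percent of regions (y axis) in steps of 0.1 of the log2 ratio of *Foxp3creCREBfl/fl* to *CREBfl/fl* pileups, each over its genome background and relative to the median of shared regions (x axis), for 621 broad regions (filled) and all 82004 shared regions (line). Broad regions crowd around 0 with an SD of 0.15, and none reaches the dotted lines at 2-fold.

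The lowest ratio was that of the promoter region of *Rnf125*, a ubiquitin ligase gene, with pileups of 683 and 257 and a relative log2 ratio of -0.83 (-1.04 to -0.62). It was broken into 2 pieces and its summit lay 1296 bp downstream of the start site. *Jmy*, which encodes a cofactor of p53 that also nucleates actin, went from 825 to 339 (-0.70, -0.89 to -0.52) with hardly any loss in width, 1934 to 1857 bp. The region shared by *Mesd*, a chaperone gene, and *Tlnrd1* went from 592 to 244 (-0.70, -0.92 to -0.48). These 3 were the lowest of the 621. Next were the Ras-like gene *Rasd1*, 234 and 105 (-0.58), *Nfkb2*, which encodes the NF-kB precursor p100, 931 and 431 (-0.53, -0.70 to -0.36), and an intronic region of *Smad3*, a transducer of TGF-beta, 569 and 277 (-0.46, -0.67 to -0.25). The 9 lymphoid transcription factors with a broad region had a median ratio of 0.00. The interval lay below 0 for *Bach2*, with 1055 and 582 (-0.28, -0.43 to -0.13), and for *Rora*, with 795 and 466 (-0.19, -0.36 to -0.02). It lay above 0 for *Runx1*, with 409 and 326 (0.25, 0.04 to 0.47), and included 0 for the other 6.

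The highest ratio belonged to *Atrnl1*, an attractin-like gene whose summit is shown above, with 255 and 258 (0.60, 0.34 to 0.85). The ceramide synthase gene *Cers6* had 396 and 374 (0.50, 0.29 to 0.71), and the protease-activated receptor gene *F2rl1* had 181 and 160 (0.40, 0.09 to 0.72). *Slc25a24*, a mitochondrial carrier gene, had 192 and 169 (0.40, 0.09 to 0.70), *Tbc1d24* 175 and 152 (0.38) and the ubiquitin ligase gene *Hectd2* 133 and 114 (0.36, -0.02 to 0.73). The pileups of these 6 regions, 133 to 396, were all below the median of the broad regions, and the interval of *Hectd2* includes 0.

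Regions with a full CRE had ratios like those of the other broad regions. The 51 broad regions with a full CRE had a median relative log2 ratio of 0.00 with an SD of 0.11, and the 570 others a median of 0.01 with an SD of 0.15. The interval lay below 0 for 4 of the 51 (7.84%) and above 0 for 1 (1.96%), against 7.88% and 5.47% of all shared regions. Of the 574 broad regions without a CRE it lay below 0 for 46 (8.01%) and above 0 for 37 (6.45%). These 574 include the few without a recovered ratio. *Dusp1*, with a CRE 71 bp from its summit, had pileups of 897 and 660 (0.14, -0.01 to 0.28) and widths of 2158 and 2137 bp. *Btg2* had 1004 and 683 (0.02, -0.12 to 0.17), *Maf* 1152 and 771 (0.00, -0.13 to 0.13) and *Rel* 692 and 496 (0.10, -0.07 to 0.27). All 4 intervals include 0. *Usp9x*, whose CRE lay 1045 bp from its summit, had 443 and 219 (-0.44, -0.68 to -0.20). Among the relatives and coactivators of CREB, *Crem* had 1318 and 919 (0.06, -0.06 to 0.18), *Crtc3* 591 and 376 (-0.07, -0.26 to 0.12), *Ep300* 963 and 664 (0.04, -0.10 to 0.19) and *Prkar1a* 837 and 570 (0.03, -0.13 to 0.18), again with 0 in each interval. *Fos*, which held 7 half-sites and no full CRE, had 993 and 640 (-0.05, -0.20 to 0.09).

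The broad regions without a start site numbered 44. Their summits lay in introns (18), between genes (22) or in exons (4), at a median of 7565 bp from the nearest start site, with 5 within 1 kb and 17 over 10 kb away. In RefSeq, 6 of them do hold a start site, at *Mnt*, *Mien1*, *Anp32b*, *Irak2*, *Igf1r* and *Fbrs*. Their median GC content was 50.8% and their median CpG ratio 0.47, and 40.9% of their windows qualified as a CpG island, against 90.9% for the broad regions with a start site. The AP-1 word was in 31.8% of their windows (20 to 46.6) and in 17.6% (14.7 to 20.9) of those with a start site. Their median pileup was 472, against 710, and their median relative log2 ratio was -0.07 (SD 0.15), against 0.01 (SD 0.14).

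The widest of them was the intronic region of *Crlf2*, followed by an intergenic region of 1879 bp at chr6:145340232-145342110, with the pseudogene *Gm15707* as its nearest gene at 24233 bp. Its pileups were 1345 and 948, and its CpG ratio of 0.67 was that of an island. An intergenic region of 1864 bp at chr5:125404987-125406850, 9292 bp from *Dhx37*, had 428 and 297. The region in *Smad3*, 1825 bp at chr9:63737408-63739232, lay 5517 bp from the nearest start site and had a CpG ratio of 0.30. The regions in *Mnt*, a MYC antagonist, with 1743 bp, and in *Crim1*, with 1741 bp, had pileups of 1058 and 672 and of 604 and 379. Of these 6 regions, the one in *Smad3* alone had an interval of the ratio below 0, and none above.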

How the data were processed

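ATAC-seq of splenic Tregs was analysed from 1 deposited peak list per group, each for 3 libraries by the labels (the methods describe sequencing in duplicate, and how libraries were joined is not given in the sources used here). Trimming (Trim Galore) and alignment (Bowtie2) of the 75 bp read pairs, removal of duplicates, a quality filter (SAMtools) and peak calling (MACS2) were done by the authors, with no versions given. The deposited values are a fold (ratio of the summit pileup to its background), -log10 p and -log10 q values, a score made from q, and a summit position.

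Each interval was taken once. No position lay past a chromosome end of GRCm38, and 57.5% of 54327 coding start sites had a region within 1 kb, against 13.9% after a shift by 100 kb, so positions were read as GRCm38 although the methods name mm9. Pileup and background were recovered from fold and p for 99.94% and 99.97% of regions (tolerance 0.002 in -log10 p). The methods name the MACS2 setting nolambda, which uses no local background. The recovered background of broad *CREBfl/fl* regions nevertheless had a median of 52.7, above the 8.44 of the genome, and the background of each peak was used. The lists shared a region from an overlap of 1 bp on. Ratios of pileups have exact conditional binomial 95% intervals and shares Wilson intervals, tested on simulated data. There is no test across mice. Start sites are from GENCODE vM21, sequences from the GRCm38 assembly of RefSeq. Python 3.11.15, pandas 2.3.3, SciPy 1.17.1 and pysam 0.24.0 were used.

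The regions, the gene lists and the tests were chosen with earlier results of these data known. Named are the genes of the 15 widest regions, up to 6 members per gene list, the 6 lowest and 6 highest ratios of pileup and width, the 6 widest regions without a start site and the neighbours of the limit. Values given beyond this rule, such as those of *Csf2ra*, *Bach2* and the X-linked regions, were chosen after they were seen.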

Additional observations from a re-analysis of the deposited data

How the results depend on the processing

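Of 26 alternatives, 19 moved a count by less than 1.5 times or a median by less than 1 SD over the regions. The sign of a median turned in 1 of these, the log2 ratio of widths, which was -0.07 as reported and 0.02 relative to that of all shared regions. The number of broad regions was 2017 with the lower of 2 other minimum widths, 49 with the higher of 2000 bp and 945 when regions less than 75 bp apart were first joined; in the last case 582 (61.6%) were also 1500 bp or more in *Foxp3creCREBfl/fl*. When joining was done in the *Foxp3creCREBfl/fl* list alone, which was tried after seeing the data, 460 of the 625 reached 1500 bp. The median log2 ratio of pileups was 0.16 without the shift to the median of all shared regions, and intervals then lay below 0 for 8 broad regions and above 0 for 284. Start sites of both strands were in 65 broad regions with protein-coding transcripts alone. The CRE half-site was in 245 windows of 300 bp at the summit, against 502 of 1500 bp. Also tried after seeing the data were the choice by width in *Foxp3creCREBfl/fl* (419 regions) and RefSeq transcripts, with which 572 broad regions held a start site and 167 start sites of both strands. No paired analysis was possible because each group has 1 list and no list per library. Leaving out single libraries was not possible for the same reason. The depth of the *Foxp3creCREBfl/fl* list limits what can be said of breaks and narrowing.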
